A study of Mus musculus with 18 samples.

Results

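Homologous recombination, Fanconi and checkpoint genes are those whose proteins find broken or crosslinked DNA, repair it from an intact copy or by joining ends, and hold the cell cycle meanwhile. Their messenger RNA was followed in mouse embryonic stem cells given adriamycin or ultraviolet light (UV). A list of 50 such genes was given by name. Of these, 48 had a probe naming that gene alone, among 19935 genes measured, and Xrcc2 and Rbbp8 were not analysed here. For a gene with more than 1 such probe the brightest over the 18 arrays was used. The gene listed as Claspn was matched under its current symbol, Clspn.

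The arrays covered a mouse embryonic stem cell line, R1E, and p53-/- mouse embryonic stem cells of 129X1 x 129S1 background, all grown with leukemia inhibitory factor. The R1E groups, of 4 arrays each, were a mock treatment, 8 hours of 0.5 µM adriamycin (also called doxorubicin, which traps topoisomerase II on DNA and leaves breaks), and UV at 25 J/m² with 8 hours of treatment. The p53-/- groups, of 3 arrays each, were left untreated or received adriamycin at the same dose and for the same time. The labels give no strain for R1E and do not say whether the p53-/- cells are 1 clone. Separate cultures behind the replicate arrays are not mentioned either, and the spread that p-values rest on may thus be technical.

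Homologous recombination starts when the MRE11-RAD50-NBN complex binds a break and the end is resected. BRCA1, with its partner BARD1, and PALB2 then bring BRCA2 to the resected end, and mediators such as RAD51D and XRCC3 assist the search for an intact copy. The Fanconi pathway acts on crosslinks between the DNA strands. Its core complex places ubiquitin on FANCD2 and FANCI, after which nucleases such as those held by SLX4 cut at the crosslink. ATM responds to double-strand breaks and signals to CHK2, while ATR with ATRIP responds to single-stranded DNA and signals to CHK1. Embryonic stem cells spend most of their cycle in S phase and are known to rely strongly on homologous recombination.

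All values below are log2 intensities or differences of them, and the array medians ran from 5.30 to 5.61. The 2 lines were normalized separately, so levels were tested only within a line. Known p53 target genes served as a treatment check: Mdm2, which encodes the ubiquitin ligase of p53, rose by 1.89 after adriamycin and 1.30 after UV in R1E cells, with a change of 0.19 (adjusted p = 0.648) after adriamycin in p53-/- cells. Trp53 itself was not analysed here, so the p53-/- label rests on the submitters' description. The mean of 12 embryonic stem cell markers was 10.25 to 10.98 on the R1E arrays and 9.71 to 9.91 on the p53-/- arrays. The mean of 13 fibroblast markers was 5.94 to 6.09 in R1E cells and 7.52 to 7.80 in p53-/- cells. The third untreated p53-/- array stood apart, being the lowest of its group for 42 of the 48 genes (40.5% of all genes). The calls that involve p53-/- arrays, and the change of Atr, are therefore also given without it. Other p53-/- changes and the p53-/- median include it. Among the mock R1E arrays, which both treatments were compared with, replicate 1 was the highest for 32 of the 48 genes (30.1% of all genes) and replicate 4 the lowest for 28 (26.8%). The number of arrays limits the precision: the median standard error (SE) of a change was 0.063 in R1E cells and 0.140 in p53-/- cells.

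Promoter stretches are shown for the 7 genes whose promoters hold the same E2F-type letters, so that their sequences can be set beside their changes. RefSeq windows (assembly GRCm38.p6, 250 bases before to 50 bases after the start of a gene) were held for 40 of the 48 genes. On both strands 6 motifs were searched. The E2F-type letters TTTCCCGC were found in 7 of these 40 genes (17.5%), against 1.76% of the 15612 measured genes with a window. A further E2F form, TTTGGCGC, was in 0 of the 40 genes and 0.833% of all. The letters CCAAT were in 55.0% against 41.7%, TTTGAA in 4 of the 40 against 17.3%, TGACGTCA in 5.0% against 2.72%, and the p53 half-site in 7.5% against 8.56%. A match describes letters only. The E2F-type matches were picked for display after these shares were seen, and how the genes that hold them moved was not tested against the others. Each line gives 48 bases on the strand of the gene, 5′ to 3′, with the match in capitals, either as TTTCCCGC or as its complement GCGGGAAA. None of the printed matches shared bases with another of the motifs searched.
Bard1, chr1:71103154-71103201, minus strand: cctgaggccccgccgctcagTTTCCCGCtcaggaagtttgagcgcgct
Brca2, chr5:150522433-150522480, plus strand: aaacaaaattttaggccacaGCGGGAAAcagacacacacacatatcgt
Rad51c, chr11:87404932-87404979, minus strand: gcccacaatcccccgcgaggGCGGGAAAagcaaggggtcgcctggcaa
Fancg, chr4:43010326-43010373, minus strand: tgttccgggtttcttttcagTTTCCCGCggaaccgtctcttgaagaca
Chek2, chr5:110839811-110839858, plus strand: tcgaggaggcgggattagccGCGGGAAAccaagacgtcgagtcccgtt
Mdc1, chr17:35841462-35841509, plus strand: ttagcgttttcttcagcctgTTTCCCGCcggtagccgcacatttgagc
Xrcc6, chr15:82016303-82016350, plus strand: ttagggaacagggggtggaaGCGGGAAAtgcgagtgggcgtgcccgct
Of these 7 genes, Bard1, Brca2 and Rad51c fell after each treatment, Mdc1 fell after adriamycin, Chek2 and Xrcc6 rose after adriamycin, and Fancg rose after UV (values below). The calls of Mdc1, Chek2, Xrcc6 and Fancg each ended under some other processing, while those of Bard1, Brca2 and Rad51c did not.

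After UV most of the genes fell, and after adriamycin more fell than rose. A gene was called changed at a Benjamini-Hochberg adjusted p below 0.05 over all 19935 genes in limma. After UV 27 genes fell and 10 rose (77.1% called, against 43.9% of all genes, of which 21.2% fell and 22.6% rose). Their median change was -0.22, against 0.03 for all genes. After adriamycin 21 fell and 9 rose (62.5% called, against 47.7% of all genes, of which 25.6% fell and 22.1% rose), with a median of -0.12 against -0.02. Changes of at least 0.5 were 6 falls and 4 rises after UV (6.4% and 6.42% of all genes), and 3 rises and 0 falls after adriamycin (10.2% and 8.3%). All 48 genes lay above the median R1E level (6.01), so 9968 genes at or above it, fitted alone, are a nearer background. Of these 3739 fell and 3084 rose after UV, and of the 48 in that fit 27 and 11. After adriamycin 4295 fell and 3011 rose, and of the 48 in that fit 23 and 9. The share of the 48 called after adriamycin was thus not above that of bright genes. Above 25 kb, the class of 31 of the 48, 55.8% of bright genes fell after UV, against 80.6% of the 31. Both treatments were compared with the same 4 mock arrays, so the comparisons are not independent of each other. Without mock replicate 1, 16 genes fell and 8 rose after adriamycin, and 27 fell and 9 rose after UV. Without mock replicate 4 these counts were 21 and 9, and 27 and 10. Compared directly, 19 genes were higher and 6 lower after adriamycin than after UV (52.1% called, against 42.0% of all genes, of which 19.8% were higher and 22.2% lower). In bulk RNA, fewer cells of a type and less RNA per cell cannot be told apart. Centring each array on its median moved the median of all genes to -0.06 after UV and -0.11 after adriamycin. The split of the 48 genes was then 30 lower and 8 higher after UV, and 27 lower and 7 higher after adriamycin, while 32.9% of all calls after UV were rises in place of 51.6%, and 30.7% in place of 46.3% after adriamycin. Of the other lists, the 12 stem cell markers had 11 lower after adriamycin and 8 after UV, and 24 genes of G2/M and mitosis had 21 lower after adriamycin and 14 after UV. Their part in these results was not tested.

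**Figure D1:**
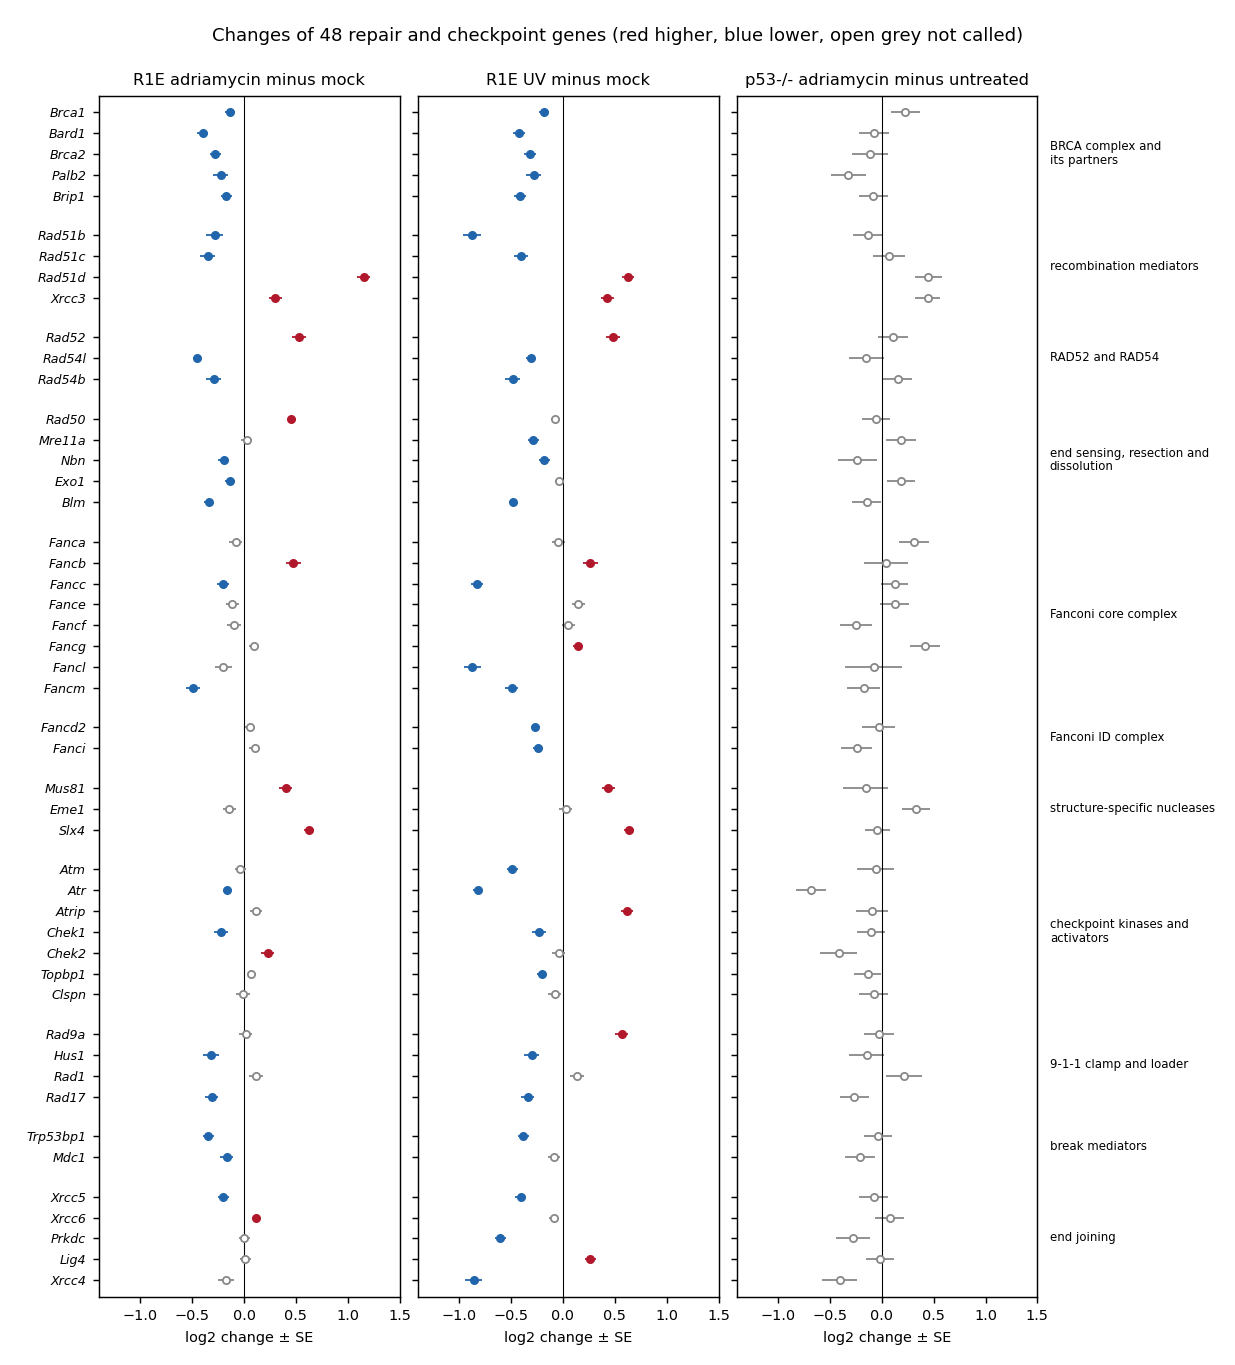
Log2 change ± SE of each of the 48 genes (rows, grouped by role) in R1E cells after adriamycin, in R1E cells after UV and in p53-/- cells after adriamycin (columns), with filled points for called genes. The points after UV reach down to -0.88, those after adriamycin in R1E cells up to 1.15, and in p53-/- cells none is called.

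The genes of the BRCA1 and BRCA2 complex moved by small amounts. Bard1, which encodes the partner of BRCA1, fell by 0.40 ± 0.06 (SE) after adriamycin and by 0.42 ± 0.06 after UV, and its other 2 probes lay lower after both treatments as well. Brca2, which acts once the end is resected, fell by 0.28 and 0.32, and Palb2, the bridge between BRCA1 and BRCA2, by 0.23 and 0.28. Brca1 fell by 0.14 after adriamycin and by 0.18 after UV. Brip1, a helicase that binds BRCA1, fell by 0.17 after adriamycin and by 0.41 after UV, and was the one gene of these 5 to differ between the treatments (0.24 higher after adriamycin, adjusted p = 0.00228). The adriamycin calls of 3 of them, with adjusted p of 0.0184 to 0.0245 on all arrays, ended when any of several single arrays was left out. That of Brca1 ended without mock replicate 1 or 3 or adriamycin replicate 2 or 4 (highest adjusted p = 0.0845). That of Palb2 ended without mock replicate 1 or adriamycin replicate 2 or 4 (highest adjusted p = 0.0659), and that of Brip1 without mock replicate 1 or adriamycin replicate 4 (highest adjusted p = 0.0718). After quantile normalization the adriamycin call of Brca1 ended as well (adjusted p = 0.189).

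Rad51b, Rad51c, Rad51d and Xrcc3, which encode mediators of recombination, moved in opposite directions. Rad51d had levels of 7.65, 7.60, 7.68 and 7.56 on the mock arrays, 8.70, 8.63, 8.85 and 8.92 after adriamycin, and 8.24, 8.21, 8.32 and 8.23 after UV. The 3 groups did not overlap, with adriamycin the highest. The change was 1.15 ± 0.06 after adriamycin (2.22-fold, adjusted p = 1.23e-10), the largest rise among the 48 genes, and 0.63 ± 0.06 after UV (1.54-fold, adjusted p = 3.49e-07). Adriamycin exceeded UV by 0.53 (adjusted p = 3.33e-06). Rad51b had levels of 6.87, 6.56, 6.61 and 6.63 on the mock arrays, 6.43, 6.27, 6.46 and 6.38 after adriamycin, and 5.85, 5.66, 6.01 and 5.65 after UV. All 4 UV arrays were below all others. Rad51b fell by 0.87 ± 0.08 after UV (1.83-fold lower, adjusted p = 2.61e-07) and by 0.28 ± 0.08 after adriamycin (adjusted p = 0.00998). Xrcc3 rose by 0.30 after adriamycin and by 0.43 after UV, and Rad51c fell by 0.35 and 0.41. Ordered by their change after UV, from Rad51d and Xrcc3 up to Rad51c and Rad51b down, the 4 genes spanned 18.7, 10.7, 28.3 and 551 kb.

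Rad52, whose protein anneals DNA strands, rose after both treatments, while genes of the RAD54 motor proteins fell. The level of Rad52 was 7.37, 7.32, 7.41 and 7.42 on the mock arrays, 7.89, 7.98, 8.01 and 7.78 after adriamycin, and 7.76, 8.05, 7.86 and 7.80 after UV. Both treated groups lay above the mock group and overlapped each other. The rise was 0.53 ± 0.07 after adriamycin (1.45-fold, adjusted p = 3.83e-06) and 0.49 ± 0.07 after UV. Rad54l fell by 0.45 after adriamycin and by 0.31 after UV, and Rad54b by 0.29 and 0.48. The difference of Rad54l between the treatments, 0.14 lower after adriamycin, was not called without UV replicate 1 or 3 or adriamycin replicate 1 or 2 (highest adjusted p = 0.0676).

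Among the genes of end sensing, resection and dissolution, Rad50 rose after adriamycin and was not called after UV. Its levels were 9.22, 9.16, 9.19 and 9.09 on the mock arrays, 9.60, 9.62, 9.65 and 9.61 after adriamycin, and 9.08, 9.10, 9.09 and 9.10 after UV. The adriamycin arrays stood above all others. The rise was 0.46 ± 0.04 (1.37-fold, adjusted p = 2.15e-07), and the difference between the treatments was 0.53 (adjusted p = 9.12e-08). The other subunits did not share this: Mre11a, the nuclease, had a change of 0.02 after adriamycin and fell by 0.28 after UV. Nbn, the third subunit, fell by 0.20 and 0.18 on its brighter probe, but a dimmer probe of Nbn rose by 0.17 (adjusted p = 0.0487) and 0.28 (adjusted p = 0.00256), so its direction depends on the probe. Blm, the helicase that takes apart crossed strands, fell by 0.34 after adriamycin and by 0.48 after UV. Exo1, an exonuclease of resection, fell by 0.14 after adriamycin, a call that ended without mock replicate 1 or adriamycin replicate 1 (highest adjusted p = 0.0669) and after quantile normalization (adjusted p = 0.0591).

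Genes of the Fanconi core complex split. Fancl encodes the subunit that attaches ubiquitin and Fancc another core subunit. Fancl had levels of 7.24, 7.19, 7.17 and 7.19 on the mock arrays, 7.11, 6.72, 7.11 and 7.04 after adriamycin, and 6.48, 6.18, 6.36 and 6.26 after UV. The UV arrays were below all the others. The fall after UV was 0.88 ± 0.08 (1.83-fold lower, adjusted p = 2.05e-07), and the change after adriamycin was -0.20 (adjusted p = 0.0546). Fancc had levels of 6.97, 7.0, 7.03 and 6.88 on the mock arrays, 6.69, 6.75, 6.78 and 6.85 after adriamycin, and 6.15, 6.01, 6.15 and 6.26 after UV. It showed the same order, falling by 0.82 ± 0.06 after UV (1.77-fold lower, adjusted p = 7.66e-09) and by 0.20 after adriamycin. Fancm, the DNA translocase, fell by 0.49 after each treatment. Fancb, a core subunit encoded on the X chromosome, rose by 0.48 after adriamycin and by 0.26 after UV, and its rise after UV was not called after centring (adjusted p = 0.072). The higher level of Fancb after adriamycin than after UV (0.21) was not called without UV replicate 2 or adriamycin replicate 1 or 3 (highest adjusted p = 0.0988). Fanca and Fancf were called in no comparison, with changes between -0.15 and 0.05 in R1E cells. Fancg rose by 0.14 after UV, a call that ended after centring (adjusted p = 0.439) and without UV replicate 2 or 3 or mock replicate 1, 2 or 4 (highest adjusted p = 0.0974). Fance was called only between the treatments, 0.26 lower after adriamycin than after UV. The genes of the proteins that receive the ubiquitin moved alike: Fancd2 had changes of 0.06 after adriamycin and -0.27 after UV, and Fanci of 0.10 and -0.24, and both were called after UV alone and between the treatments.

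**Figure D2:**
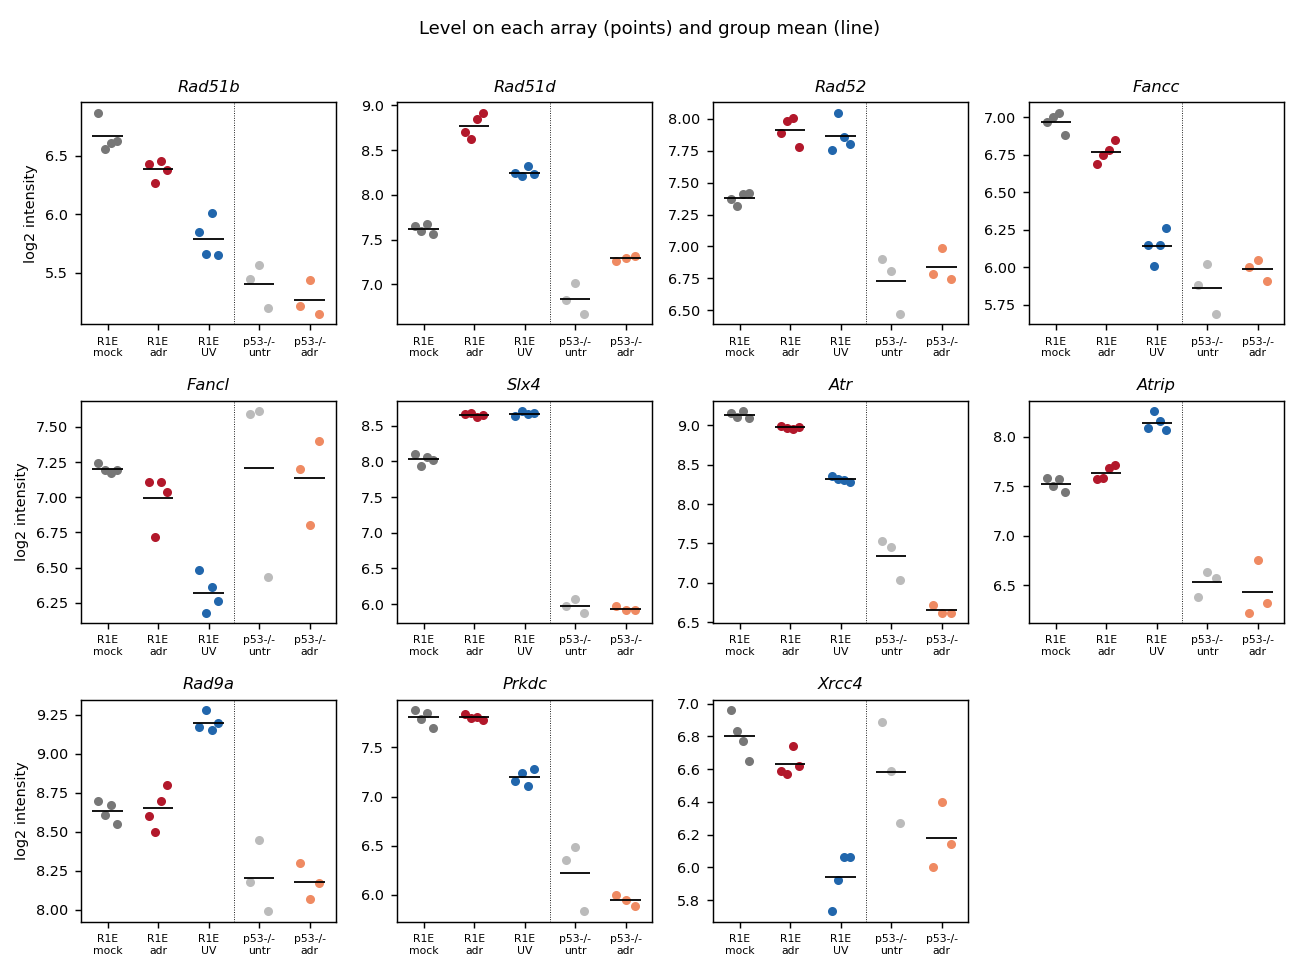
Log2 intensity on every array (points) and the group mean (line) for the genes with the largest changes, in the 3 R1E groups and the 2 p53-/- groups, which were normalized separately. Slx4 and Rad51d stand higher on all treated R1E arrays than on the mock arrays, while Atr, Fancl and Xrcc4 stand lower on the R1E UV arrays than on the other R1E arrays.

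Structure-specific nucleases were represented by Mus81, Eme1 and the scaffold gene Slx4. Slx4 had levels of 8.10, 7.94, 8.06 and 8.02 on the mock arrays, 8.66, 8.68, 8.62 and 8.65 after adriamycin, and 8.63, 8.70, 8.66 and 8.68 after UV. All treated arrays were above all mock arrays, and the treated groups overlapped. The rise was 0.62 ± 0.05 after adriamycin (1.54-fold, adjusted p = 9.35e-09) and 0.64 ± 0.05 after UV (1.55-fold, adjusted p = 1.31e-08). The difference between the treatments was -0.01, with a 95% interval of -0.11 to 0.09. Mus81, the catalytic subunit, rose by 0.40 and 0.44. Its partner Eme1 had changes of -0.14 after adriamycin and 0.03 after UV, neither of them called. Eme1 was 0.17 lower after adriamycin than after UV (adjusted p = 0.0429), a call that ended after centring (adjusted p = 0.0605) and with only UV and adriamycin arrays fitted (adjusted p = 0.0689). It also ended without any of 7 single arrays, namely UV replicates 1 to 3, adriamycin replicates 1 and 2 and mock replicates 2 and 3 (highest adjusted p = 0.143).

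Of the checkpoint kinase genes, Atr, Atm and Chek2 differed between the treatments, and Chek1 did not pass the test (difference 0.01, adjusted p = 0.895). Atr had levels of 9.16, 9.11, 9.18 and 9.10 on the mock arrays, 8.99, 8.97, 8.96 and 8.98 after adriamycin, and 8.36, 8.32, 8.31 and 8.28 after UV. The 3 groups were fully separate, with UV the lowest. Atr fell by 0.82 ± 0.04 after UV (1.77-fold lower, adjusted p = 2.51e-10) and by 0.16 ± 0.04 after adriamycin (adjusted p = 0.00476). Atrip, whose protein holds ATR to single-stranded DNA, had levels of 7.58, 7.50, 7.57 and 7.44 on the mock arrays, 7.57, 7.58, 7.69 and 7.72 after adriamycin, and 8.09, 8.26, 8.16 and 8.07 after UV. It thus went the other way from Atr after UV, rising by 0.62 ± 0.06 (1.54-fold, adjusted p = 1.75e-07), with a change of 0.11 (adjusted p = 0.118) after adriamycin. Atm fell by 0.49 after UV, with a change of -0.04 after adriamycin. Chek1, which encodes the kinase downstream of ATR, fell by 0.22 after adriamycin and by 0.23 after UV, the first of these calls ending without mock replicate 1 (adjusted p = 0.0517). Chek2, which encodes the kinase downstream of ATM, rose by 0.23 after adriamycin (adjusted p = 0.00626; 0.0899 after centring) and had a change of -0.04 after UV. Topbp1, an activator of ATR, fell by 0.20 after UV. Clspn, the adaptor for CHK1, was called in no comparison. After quantile normalization the adriamycin calls of Atr and Chek1 ended (adjusted p = 0.0517 and 0.13).

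The clamp that marks damaged DNA is built of RAD9A, HUS1 and RAD1 and is loaded by RAD17. Rad9a had levels of 8.70, 8.61, 8.67 and 8.55 on the mock arrays, 8.60, 8.50, 8.70 and 8.80 after adriamycin, and 9.17, 9.28, 9.15 and 9.20 after UV. The UV arrays were above all others. Rad9a rose by 0.57 ± 0.06 after UV (1.48-fold, adjusted p = 1.26e-06), with a change of 0.02 after adriamycin. Hus1 fell by 0.32 after adriamycin and by 0.30 after UV, Rad17 by 0.31 and 0.34, and Rad1 was not called after either. Thus the genes of 1 complex were seen to rise, to fall and not to pass the test. Of the mediators that gather at breaks, Trp53bp1 fell by 0.35 after adriamycin and by 0.38 after UV. Mdc1 fell by 0.17 after adriamycin, a call that ended after quantile normalization (adjusted p = 0.168) and without adriamycin replicate 4 or mock replicate 2, 3 or 4 (highest adjusted p = 0.123).

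Non-homologous end joining needs the Ku proteins (Xrcc5 and Xrcc6), the kinase Prkdc, and the ligase Lig4 with its scaffold Xrcc4. Xrcc4 had levels of 6.96, 6.83, 6.77 and 6.65 on the mock arrays, 6.59, 6.57, 6.74 and 6.62 after adriamycin, and 5.73, 5.92, 6.06 and 6.06 after UV. The UV arrays were below all others, and the adriamycin arrays overlapped the mock arrays. Xrcc4 fell by 0.86 ± 0.08 after UV (1.82-fold lower, adjusted p = 1.47e-07), with a change of -0.17 (adjusted p = 0.0879) after adriamycin. Lig4, whose protein works bound to XRCC4, rose by 0.26 after UV and had a change of 0.01 after adriamycin. Prkdc had levels of 7.88, 7.79, 7.85 and 7.70 on the mock arrays, 7.84, 7.80, 7.81 and 7.78 after adriamycin, and 7.16, 7.24, 7.11 and 7.28 after UV. Its UV arrays were below all others. Prkdc fell by 0.61 ± 0.05 after UV (1.52-fold lower, adjusted p = 9.96e-08), with a change of 0.00 after adriamycin. Xrcc5 fell by 0.20 after adriamycin (not called after quantile normalization, adjusted p = 0.18) and by 0.41 after UV. Xrcc6 rose by 0.12 after adriamycin, a call that ended after centring (adjusted p = 0.587), with only mock and adriamycin arrays fitted (adjusted p = 0.0556), and when mock replicate 1, 2 or 3, adriamycin replicate 1 or 2 or UV replicate 3 was left out (highest adjusted p = 0.128).

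The change after UV followed the length of the gene. The span of a gene, from the start to the end of its transcribed region in RefSeq (GRCm38.p6), ran from 1.69 kb (Fancf) to 551 kb (Rad51b) with a median of 36.3 kb, against 17.7 kb for all genes. All 6 genes above 100 kb (Rad51b, Xrcc4, Prkdc, Fancc, Brip1 and Trp53bp1) fell after UV, with a median change of -0.71. Of the 31 genes above 25 kb, 25 fell and 0 rose. Of the 17 genes of 25 kb or less, 10 rose and only Hus1 and Chek1 fell. Across the 48 genes Spearman's rho of span and change was -0.82 after UV, and -0.80 without the 2 longest genes. After adriamycin rho was -0.37, and for the difference of adriamycin minus UV it was 0.77. That difference holds the UV change with its sign reversed, so its rho is not separate from the one after UV. These are descriptions across genes measured on the same arrays, and genes are not independent replicates.

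The relation after UV had the same sign over all genes. All 48 members lay above the median level of R1E cells (6.01), so genes at or above that level are the nearer background. Over 9952 such genes with a span rho was -0.46 after UV, against -0.29 over all 19850 genes with a span. Of the 1128 such genes above 100 kb, 78.5% fell and 7.89% rose after UV. Of the 2455 such genes of 10 kb or less, 42.5% rose and 12.5% fell, and of the 6 repair genes in that class Mus81, Rad9a, Lig4 and Fancg rose and 0 fell. Of such genes above 25 kb 55.8% fell and 17.9% rose, and of those of 25 kb or less 39.0% rose and 17.1% fell. Over these bright genes rho was 0.03 after adriamycin and 0.56 for adriamycin minus UV, the latter 0.40 over all genes.

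**Figure D3:**
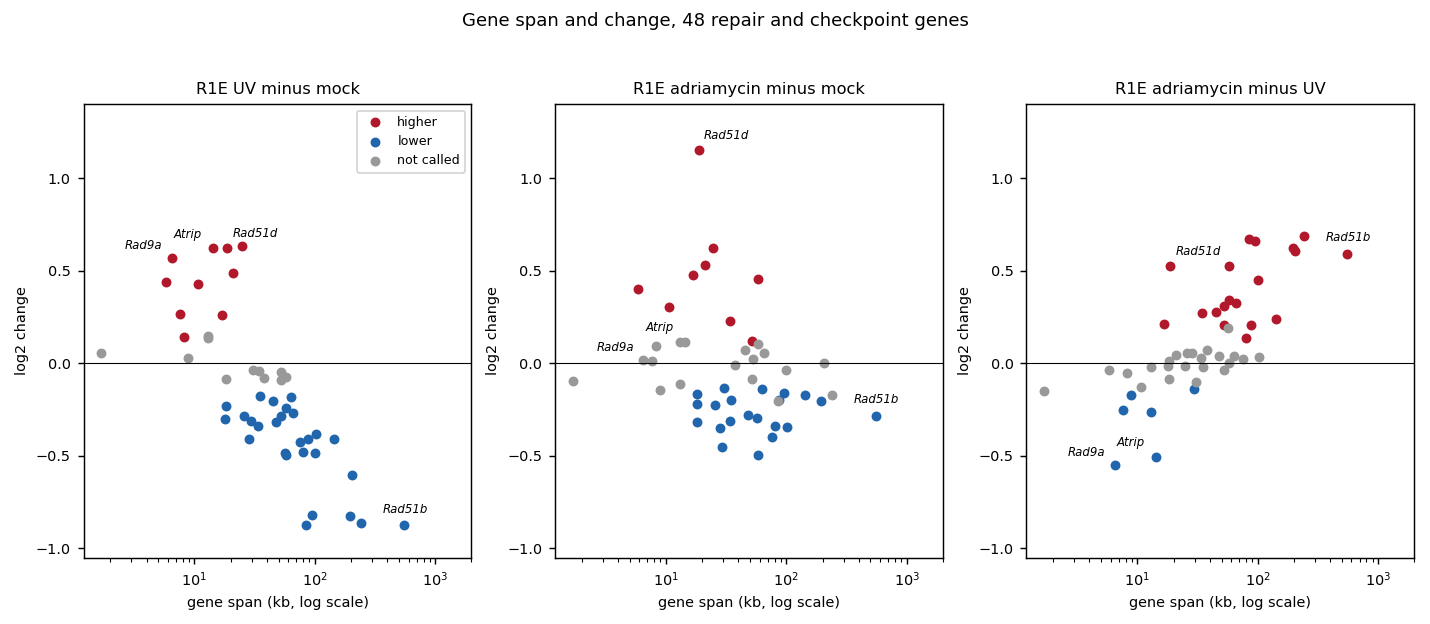
Log2 change of the 48 genes (vertical) against gene span in kb (horizontal, log scale) in R1E cells after UV, after adriamycin, and for adriamycin minus UV, with colour showing the call. After UV no gene above 25 kb is higher and the 6 genes above 100 kb are all lower. The slope is reversed for adriamycin minus UV, which holds the UV change with its sign reversed.

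Some partners in 1 complex differed both in span and in their change after UV, and others did not. Atr spans 95.6 kb and Atrip 14.4 kb, and the change after UV was -0.82 for the first and 0.62 for the second. Xrcc4 spans 241 kb and Lig4 7.66 kb, with changes of -0.86 and 0.26. These pairs were picked after their values were seen. Fancd2 and Fanci, with spans of 65.4 and 58.0 kb, had changes of -0.27 and -0.24, while Mus81 and Eme1, with spans of 5.83 and 8.87 kb, had changes of 0.44 and 0.03. Slx4 (24.7 kb) and Rad52 (21.1 kb) rose, while Rad17 (33.9 kb) and Hus1 (18.1 kb) fell. Exceptions to the trend included Rad50 (57.8 kb), Fanca (52.4 kb) and Xrcc6 (52.3 kb), with changes of -0.07, -0.05 and -0.09 after UV that were not called. Whether span itself or another property that goes with span moved with the change was not tested.

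In p53-/- cells adriamycin gave no call among the 48 genes, where 0.0953% of all genes were called in limma (0.015% higher, 0.0803% lower) and 7 of the 48 (14.6%, against 11.6% of all genes) had an unadjusted p below 0.05. Those 7 were Rad51d, Xrcc3, Fancg and Eme1, which lay higher, and Atr, Chek2 and Xrcc4, which lay lower. The median change over the 48 genes was -0.08, against 0.06 for all genes. This count depends on the fit: a spread shared with the R1E arrays called 5 of the 48 higher and 2 lower (1478 and 784 of all genes), and array weights called 1 higher and 5 lower (702 and 736 of all genes). Atr had levels of 7.53, 7.45 and 7.04 on the untreated arrays and 6.72, 6.62 and 6.62 after adriamycin. These groups did not overlap, and the change of -0.69 ± 0.15 had an adjusted p of 0.153. Without untreated replicate 3, the array that stood apart, the change was -0.83 and was called (adjusted p = 0.00769), the only one of the 48 genes to be. Rad51d had levels of 6.83, 7.02 and 6.67 on the untreated arrays and 7.26, 7.29 and 7.32 after adriamycin, again without overlap, and its change was 0.45 ± 0.13 (adjusted p = 0.239). Xrcc3 had a change of 0.44 (adjusted p = 0.212), Fancg 0.42, Eme1 0.33, Chek2 -0.41 and Xrcc4 -0.41. Xrcc4 had levels of 6.89, 6.59 and 6.27 untreated and 6.0, 6.4 and 6.14 after adriamycin, which overlapped.

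For the rest of the genes given array by array, the p53-/- groups overlapped. Slx4 had levels of 5.98, 6.07 and 5.88 untreated and 5.97, 5.92 and 5.92 after adriamycin. Rad52 had levels of 6.90, 6.81 and 6.47 untreated and 6.78, 6.99 and 6.74 after adriamycin. Fancl, the most scattered of them, had 7.59, 7.61 and 6.43 untreated and 7.20, 6.80 and 7.40 after adriamycin. Prkdc had 6.35, 6.49 and 5.83 untreated and 6.0, 5.95 and 5.89 after adriamycin. Here, as in most of these genes, the third array was the lowest of the untreated group. Rad51b had 5.45, 5.57 and 5.20 untreated and 5.22, 5.44 and 5.15 after adriamycin, and Fancc had 5.88, 6.02 and 5.69 untreated and 6.0, 6.05 and 5.91 after adriamycin. Atrip had 6.38, 6.63 and 6.57 untreated and 6.22, 6.75 and 6.32 after adriamycin. Rad9a had 8.18, 8.45 and 7.99 untreated and 8.30, 8.07 and 8.17 after adriamycin. Rad50 had 8.07, 8.06 and 7.93 untreated and 8.05, 8.07 and 7.77 after adriamycin. None of these genes had an unadjusted p below 0.05.

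The adriamycin effect itself was then compared between the lines, as the R1E change minus the p53-/- change with each line's own spread. The difference was called for 6 of the 48 genes, 5 higher and 1 lower in R1E cells (12.5%, against 21.7% of all genes, of which 10.4% were higher and 11.4% lower). With dim genes left out of each line's fit, 1182 of 9068 genes were higher and 1741 lower. Of the 47 members kept there, 5 were higher and 2 lower. On all genes the difference was 0.71 ± 0.14 for Rad51d (adjusted p = 0.00152), where the change was 1.15 in R1E and 0.45 in p53-/- cells. It was 0.67 ± 0.13 for Slx4 (adjusted p = 0.00129), from 0.62 and -0.05. The other calls were Rad50 (0.51, from 0.46 and -0.06), Chek2 (0.64, from 0.23 and -0.41), Atr (0.52, from -0.16 and -0.69) and Eme1 (-0.47, from -0.14 and 0.33). Rad51d and Slx4 were called whichever single array was left out. The calls of the other four each ended without at least 1 array. That of Rad50 ended without p53-/- untreated replicate 2 or adriamycin replicate 3 (highest adjusted p = 0.0669), and that of Chek2 without p53-/- untreated replicate 2 or adriamycin replicate 1 or 3 (highest adjusted p = 0.112). That of Atr ended without any p53-/- array but untreated replicate 3 (highest adjusted p = 0.0953). That of Eme1 ended without R1E adriamycin replicate 2 or any p53-/- array but untreated replicate 2 (highest adjusted p = 0.0905). Rad54b, with a difference of -0.45, was not called on all arrays (adjusted p = 0.0508). It was called, as lower, when any of several single arrays was left out. Fanca (lower) and Mus81, Prkdc and Rad52 (higher) were also called without some single array. Without untreated replicate 3, 7 genes were higher (Atr, Chek2, Prkdc, Rad50, Rad51d, Rad52 and Slx4) and 0 lower. The share of all genes called in that fit was not determined, so this split is not a result about the 48 genes.

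In this difference the p53 genotype cannot be told apart from the cell line, the array set or the processing tool. The means of fibroblast markers given above, higher on the p53-/- arrays, also went with the line. So did 9 primitive endoderm markers, whose mean was 5.97 to 6.34 in R1E and 7.15 to 7.56 in p53-/- cells. The lines were normalized separately, so these marker levels were not tested between them. The part of the markers in the difference was not tested. The difference test also made more false calls on simulated arrays than its threshold allows, so the adjusted p-values of the difference may be too small.

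**Figure D4:**
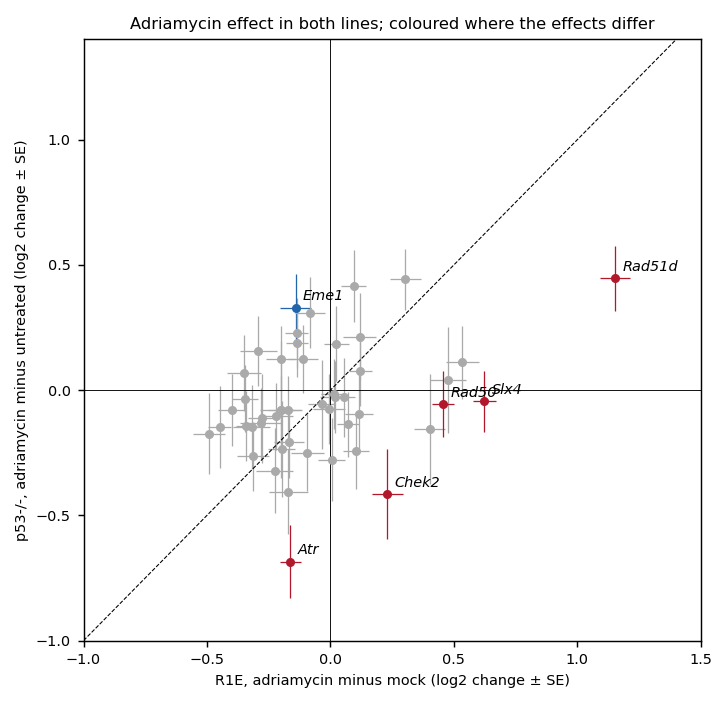
Log2 change ± SE after adriamycin in p53-/- cells (vertical) against that in R1E cells (horizontal) for the 48 genes, with the line of equal change dashed and colour marking the 6 genes whose effects differed. Rad51d lies at 1.15 and 0.45, Slx4 at 0.62 and -0.05, and Eme1 lies on the other side of the line.

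Among 53 measured genes of a wider list of repair and checkpoint factors (57 listed), 25 fell and 12 rose after adriamycin in R1E cells, where 25.6% of all genes fell and 22.1% rose (list median -0.14). Those with the largest changes were Nhej1, the end-joining factor that works with XRCC4, up 2.29-fold (log2 change 1.2), Poll, a gap-filling polymerase, up 1.73-fold (0.79), Dna2, a resection nuclease, up 1.72-fold (0.78), and Usp1, which takes ubiquitin off FANCD2, down 1.67-fold (-0.74). After UV 19 fell and 10 rose, where 21.2% of all genes fell and 22.6% rose (list median -0.05). Wrn, a helicase related to Blm, fell by 0.99 and Babam2, a subunit of a BRCA1 complex, by 0.85, while Dna2 rose by 0.64. Nhej1 was 1.16 higher after adriamycin than after UV. In p53-/- cells 0 of the 53 were called, and the adriamycin effect differed between the lines for 12 of them, a share near the 21.7% of all genes, with the largest difference for Dna2 (0.95, adjusted p = 4.17e-05). Genes of DNA replication and G1/S, 39 measured, fell in 21 cases and rose in 3 after adriamycin in R1E cells, and fell in 15 and rose in 5 after UV, to be read against the same shares of all genes.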

How the data were processed

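Total RNA was measured on 18 whole-transcript Affymetrix arrays. The authors deposited log2 intensities, 1 per probe set and array, made, per the submitters' processing notes, with Affymetrix Expression Console 1.1 for R1E (algorithm not given in the sources used here) and by RMA in Partek 6.4 for p53-/- cells. Of 28853 probes, 28815 had values on all arrays. The platform annotation named 1 gene for 21780, several for 1605 and none for 5430, and only the first were used, the brightest probe per gene, giving 19935 genes.

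Values were fitted in limma 3.58.1 (R 4.3.3) (lmFit, eBayes) without normalizing them again: 1 fit over 12 R1E arrays, 1 over 6 p53-/- arrays, and the difference of effects from both fits' moderated SEs with Welch-Satterthwaite degrees of freedom. A call needed an adjusted p (Benjamini-Hochberg, over all genes) below 0.05. The scripts were tested on simulated arrays.

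The members and lists were chosen with earlier results of these data known. All members are named, and array values are given for called members changed by at least 0.5 in R1E cells after a treatment and, added after values were seen, for Rad50. Of the wider repair list, the 4 largest called changes per comparison were eligible for naming. Alternatives covered normalization, centring, dim genes, probe choice, prior, array weights, the groups fitted together, a fold threshold, a replicate block and leaving out single arrays.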

Additional observations from a re-analysis of the deposited data

Results flagged for a closer look

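In 6 of 144 sets of 4 R1E arrays, 1 array lay far from its 3 fellows, where chance gives about 1 in 20 such sets. Brip1 was at 7.13 on UV replicate 2, against 7.04 on the others, and Fancd2 at 8.71 on the same array, against 8.62 to 8.63. Chek1 was low there, at 9.53 against 9.78 to 9.82. Eme1 was at 8.27 on UV replicate 4, against 8.45. After adriamycin Atm was at 8.39 on replicate 1, against 8.33 to 8.34, and Trp53bp1 at 7.72 on replicate 2, against 7.57 to 7.59.

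The adriamycin effect differed between the lines, R1E minus p53-/-, by a test of the difference itself, for Rad51d (0.71), Slx4 (0.67), Chek2 (0.64), Atr (0.52), Rad50 (0.51) and Eme1 (-0.47). Genotype, line, array set and tool cannot be told apart in these values.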

How the results depend on the processing

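With no array left out, calls among the 48 genes for the R1E comparisons stayed within 1.5 times of the reported counts under every alternative but 1. Requiring a 1.2-fold change left 11 falls after adriamycin and 3 genes lower after adriamycin than after UV. Steady counts can hide changes in which genes are called. After adriamycin in R1E cells, quantile normalization ended 6 calls and added 5, and centring ended 2 and added 6. The p53-/- and difference counts were less steady. One fit over 18 arrays with a shared spread gave 5 genes higher and 2 lower in p53-/- cells. For the difference it gave 6 higher and 8 lower (2571 and 3233 of all genes). Array weights gave 1 higher and 5 lower in p53-/- cells, and 8 higher and 6 lower for the difference (2893 and 3260 of all genes). Leaving out dim genes and averaging probes each gave 5 higher and 2 lower for the difference, and quantile normalization 7 and 2. Averaging the probes of Nbn turned its change after UV to 0.053 (adjusted p = 0.438), its probes having opposite signs. Over all genes, p53-/- calls were 3 higher and 16 lower as reported, 1478 and 784 with the shared spread, and 702 and 736 with array weights. The cause was not tested. After UV rho of span and change stayed between -0.84 and -0.80 over 21 settings.

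Leaving out each array in turn gave 8 to 9 rises and 16 to 23 falls after adriamycin, 9 to 11 rises and 27 falls after UV, and 18 to 20 higher and 4 to 7 lower for adriamycin minus UV. It gave 0 higher and 0 to 1 lower in p53-/- cells, and 2 to 7 higher and 0 to 2 lower for the difference. Shares of all genes called were not determined for these fits. Of the calls, 23 of 30 held without any 1 array after adriamycin, 36 of 37 after UV, 22 of 25 for adriamycin minus UV and 2 of 6 for the difference.

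Arrays with the same replicate number did not deviate together (correlations of -0.14 to 0.19), so the numbers were not taken to pair them. Larger correlations were seen between some arrays of different number. They ran from -0.42 (R1E mock replicate 4 and adriamycin replicate 3) to 0.39 (mock replicate 1 and adriamycin replicate 3). The cause of these was not tested. With a replicate block the difference had 5 genes higher and 2 lower, adriamycin 8 and 21, UV 11 and 27, adriamycin minus UV 20 and 6, and p53-/- cells 0, with 5 calls over all genes in place of 19. The block ended the adriamycin calls of Mdc1 and Xrcc6 (adjusted p = 0.054 and 0.0649).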
